A study of Mus musculus with 15 samples.

Results

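Levels of 10 genes of the fibroblasts of the meninges were read in every RNA-sequencing library of foetal mouse cerebral cortex and of cultured cortical neurons with and without Phf6. The genes were Col1a1, Col1a2, Col3a1, Col6a1, Col6a2, Lum, Foxc1, Aldh1a2, Cyp1b1 and Slc6a13. They were taken by name, as markers of meninges in the samples, from 23132 genes kept, and all 10 were present in the count table. They share no reads with an overlapping annotated gene.

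All foetuses were C57BL/6 males, and Phf6 lies on the X chromosome. The cortices were dissected at E15.5 and used directly. The Phf6+/Y group had 3 cortices and the Phf6-/Y group, which carried a germline deletion, had 5. The cultures were made from cortices of E16.5 foetuses that were digested with trypsin, dissociated, filtered and cultured overnight under conditions that favour neurons over other cells. Of these, 3 were Phf6+/Y;Nes-cre controls and 4 were Phf6lox/Y;Nes-cre, so both groups carried the Nes-cre transgene, which deletes the floxed Phf6 in cells of the nervous system lineage. Cortices came from litters 1 to 3, each with 1 control. Cultures came from litters 4 to 7, and litter 7 had no control. Whether meninges were removed from the cortices is not given in the sources used here. Total counts lay between 22790294 and 31157700 in cortices and between 16858007 and 29842150 in cultures. Phf6 itself was at 149 to 191 CPM (counts per 1000000 counts, on TMM-scaled library sizes) in control cortices and at 42.4 to 55.2 CPM in Phf6-/Y cortices. It was at 228 to 259 CPM in control cultures and at 59.9 to 85.8 CPM in Phf6lox/Y;Nes-cre cultures, so no library went against its label.

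The meninges are the membranes that wrap the brain. Their fibroblasts arise largely from neural crest and mesoderm, secrete a collagen-rich matrix, help to form the basement membrane at the brain surface and send signals to the cortex under them, among them retinoic acid. Col1a1 and Col1a2 encode the chains of type I collagen, and Col3a1 encodes type III collagen, both of which form fibrils. Col6a1 and Col6a2 encode chains of the beaded-filament collagen VI. Lum encodes lumican, a proteoglycan that binds collagen fibrils. Foxc1 encodes a forkhead transcription factor needed for the meninges to form. Aldh1a2 encodes an enzyme that makes retinoic acid, Cyp1b1 encodes a cytochrome P450 that can oxidise retinol and steroids, and Slc6a13 encodes the GABA and taurine transporter GAT2, which lies in the leptomeninges. In bulk RNA, fewer cells of a type and less RNA per cell cannot be told apart.

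Since the 10 genes moved together across the cortices, the promoters of a few are shown. RefSeq promoter sequences (GRCm38.p6) were found for 8 of the 10 genes, in 11 windows, and those of Col1a1 and Lum were not among them. The stretches below are the 250 bases before the annotated start, read 5′ to 3′ on the strand of the gene, all on the plus strand. They lie at chr6:4505368-4505617 (Col1a2), chr1:45311288-45311537 (Col3a1), chr13:31806396-31806645 (Foxc1) and chr9:71215539-71215788 (Aldh1a2). Capitals mark the TATA motif (TATAAA), the CAAT motif (CCAAT) and the GC motif (GGGCGG), each searched on both strands. On the other strand the CAAT motif appears as ATTGG. These 4 were chosen because they show 2 fibrillar collagen genes, the transcription factor and the retinoic acid enzyme.
Col1a2: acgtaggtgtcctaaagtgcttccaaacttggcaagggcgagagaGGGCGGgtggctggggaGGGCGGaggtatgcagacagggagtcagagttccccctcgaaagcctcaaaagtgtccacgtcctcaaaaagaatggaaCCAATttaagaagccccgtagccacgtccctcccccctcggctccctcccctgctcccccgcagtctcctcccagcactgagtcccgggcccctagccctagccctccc
Col3a1: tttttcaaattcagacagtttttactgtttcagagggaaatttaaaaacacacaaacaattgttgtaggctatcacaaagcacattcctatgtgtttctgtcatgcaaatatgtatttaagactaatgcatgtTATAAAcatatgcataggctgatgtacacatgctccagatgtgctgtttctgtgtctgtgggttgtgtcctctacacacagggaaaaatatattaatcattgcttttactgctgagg
Foxc1: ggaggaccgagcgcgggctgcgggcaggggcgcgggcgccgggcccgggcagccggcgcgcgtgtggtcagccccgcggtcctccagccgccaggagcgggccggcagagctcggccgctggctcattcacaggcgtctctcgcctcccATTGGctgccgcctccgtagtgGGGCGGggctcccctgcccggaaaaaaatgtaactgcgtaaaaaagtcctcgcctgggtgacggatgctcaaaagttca
Aldh1a2: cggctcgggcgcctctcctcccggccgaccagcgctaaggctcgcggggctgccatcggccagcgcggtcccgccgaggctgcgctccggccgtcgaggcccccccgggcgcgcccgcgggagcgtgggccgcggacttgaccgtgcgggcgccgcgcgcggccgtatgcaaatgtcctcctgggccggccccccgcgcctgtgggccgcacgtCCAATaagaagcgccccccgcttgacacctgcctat
TATAAA occurred in 1 of the 8 genes, Col3a1, at 117 bases before the start. CCAAT occurred in 4 (Col1a2, Slc6a13, Aldh1a2 and Foxc1) and GGGCGG in 5 (Col1a2, Slc6a13, Col6a2, Foxc1 and Cyp1b1). By window, TATAAA was in 1, CCAAT in 4 and GGGCGG in 6 of the 11. Of all 32851 promoter windows of this length, 12.4% held TATAAA, 33.8% held CCAAT and 32.7% held GGGCGG. No motif was common to all 8 genes. A match describes the letters of these windows and does not show a binding site.

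In the cortices, the summed level of the 10 genes differed 31.2-fold between the highest and the lowest library. The sum was 20.6, 32.8 and 302 CPM in Phf6+/Y replicates 1 to 3. It was 101, 127, 19.0, 592 and 19.4 CPM in Phf6-/Y replicates 1 to 5. The highest and the lowest cortex were therefore both Phf6-/Y, and the second highest was a control. The genotypes overlapped over most of this range.

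Type I and type III collagen made up most of the sum. Col3a1 was at 6.85, 12.8 and 119 CPM in Phf6+/Y replicates 1 to 3 and at 37.4, 50.9, 4.46, 245 and 5.56 CPM in Phf6-/Y replicates 1 to 5, a 54.9-fold range. Col1a2 was at 3.94, 8.91 and 65.4 CPM and at 21.2, 26.2, 4.13, 127 and 4.10 CPM in the same order, a 32.1-fold range. Col1a1 was at 1.35, 2.73 and 49.0 CPM and at 18.6, 18.7, 0.951, 101 and 2.38 CPM, a 106-fold range. For each of these fibrillar collagens, Phf6-/Y replicate 4 and then Phf6+/Y replicate 3 were highest, and the genotypes overlapped.

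The chains of collagen VI spread unequally. Col6a1 was at 0.313, 0.357 and 12.5 CPM in the controls and at 4.20, 3.51, 0.731, 20.5 and 0.418 CPM in the Phf6-/Y cortices, a 65.7-fold range. Col6a2 was at 2.44, 2.97 and 14.5 CPM and at 7.56, 8.39, 2.41, 29.5 and 2.51 CPM, a 12.2-fold range. Col6a2 thus kept a floor of more than 2 CPM in every cortex, where Col6a1 fell below 1 CPM in 4.

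Lum and Aldh1a2 reached 0 reads. Lum was at 0.0626, 0.238 and 8.50 CPM in the controls and at 3.15, 2.51, 0.110, 10.2 and 0 CPM in the Phf6-/Y cortices. Aldh1a2 was at 0.125, 0 and 7.50 CPM and at 0.504, 2.65, 0.0731, 11.3 and 0 CPM. Against Phf6-/Y replicate 5, which had no read of either, Phf6-/Y replicate 4 was at least 81.7-fold higher for Lum and at least 90.3-fold higher for Aldh1a2 (floor of 3 counts in that library, counting error only). For a gene with 0 reads, 3 counts allowed a level of up to 0.125 CPM in Phf6-/Y replicate 5 and up to 0.119 CPM in Phf6+/Y replicate 2. Slc6a13, the transporter, was at 0.250, 0.594 and 7.70 CPM in the controls and at 0.630, 2.83, 0.329, 16.6 and 0.167 CPM in the Phf6-/Y cortices, a 99.1-fold range.

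Cyp1b1 and Foxc1 varied less. Cyp1b1 was at 0.876, 0.832 and 8.02 CPM in the controls and at 3.15, 3.30, 1.06, 14.9 and 0.878 CPM in the Phf6-/Y cortices, a 17.9-fold range. Foxc1 was at 4.41, 3.45 and 10.0 CPM and at 4.96, 7.56, 4.72, 16.3 and 3.34 CPM, a 4.87-fold range. Foxc1, the transcription factor, had the narrowest range of the 10 genes and never fell below 80 reads in a cortex.

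**Figure D1:**
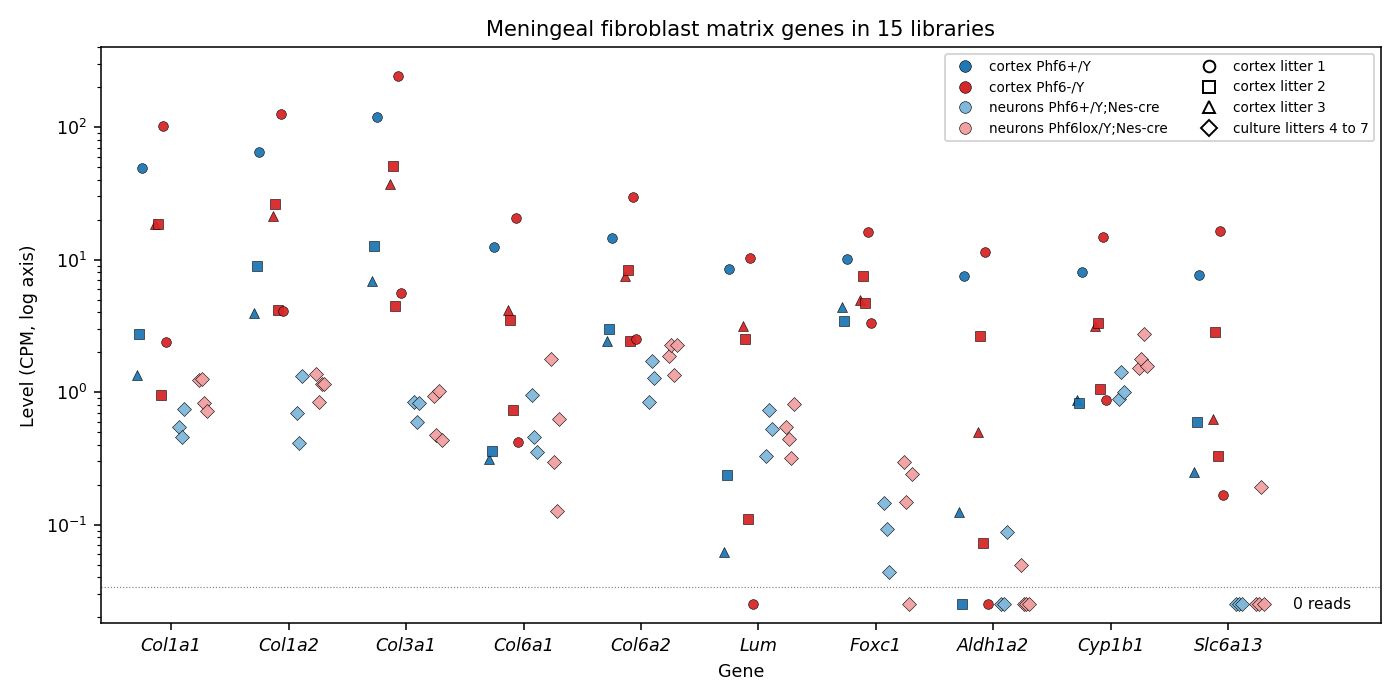
Level of each gene (CPM, log axis) in every library, with colour for the group and point shape for the litter, and libraries without a read drawn below the dotted line. For all 10 genes the highest point is the Phf6-/Y cortex of litter 1 labelled replicate 4, and the range of Foxc1 over cortices, 4.87-fold, is the narrowest.

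The order of the cortices was nearly the same for every gene. Phf6-/Y replicate 4 was first and Phf6+/Y replicate 3 second for 10 of 10 genes, and Phf6-/Y replicates 1 and 2 filled the next places for 10 of 10. The gap below them was narrow for Foxc1, where the fourth library was 1.05 times the fifth, and for Slc6a13, at 1.06 times. It was widest for Lum, at 10.6 times. For these 2 genes with narrow gaps, the fourth and the fifth cortex do not differ beyond counting error. On the log2 CPM scale, each gene followed the mean of the other 9 with Pearson's r of 0.94 to 0.99 over the 8 cortices, which came from 3 litters. The 45 pairs had a median r of 0.956, from 0.864 (Lum with Foxc1) to 0.995 (Col1a2 with Col3a1). In the 7 cultures, where most of these genes had few reads, the median r of the pairs was 0.065. These correlations describe libraries that share litters and are given without a test.

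Per kilobase of counted length, which allows genes to be compared, Col3a1 was at 0.802 to 44.1 CPM per kb and was the highest of the 10 genes in 7 of 8 cortices. In the remaining cortex, Phf6-/Y replicate 3, Foxc1 was highest at 1.18 CPM per kb, above Col1a2 at 0.804 and Col3a1 at 0.802 CPM per kb. In Phf6-/Y replicate 4 it was followed by Col1a2 at 24.6 CPM per kb and Col1a1 at 21.5 CPM per kb, and Cyp1b1 was lowest at 2.91 CPM per kb. In Phf6-/Y replicate 5 Col3a1 was at 0.999, Foxc1 at 0.838, Col1a2 at 0.797 and Col6a2 at 0.673 CPM per kb, and Col1a1 was at 0.506 CPM per kb. In that cortex the transcription factor and the fibrillar collagen chains were thus at similar levels per length.

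The balance between partner chains differed among cortices. Reads of Col1a1 were 44.4% of all Col1a1 and Col1a2 reads in Phf6-/Y replicate 4 (95% interval 43.2 to 45.6%, exact Clopper-Pearson). The share was 42.8% (41.0 to 44.7%) in Phf6+/Y replicate 3, 46.7% (43.5 to 50.0%) in Phf6-/Y replicate 1 and 41.7% (38.9 to 44.4%) in Phf6-/Y replicate 2. It was 25.4% (19.1 to 32.7%) in Phf6+/Y replicate 1, 23.5% (18.7 to 28.7%) in Phf6+/Y replicate 2, 18.7% (12.6 to 26.2%) in Phf6-/Y replicate 3 and 36.8% (29.2 to 44.9%) in Phf6-/Y replicate 5. The intervals, which cover counting error only, of Phf6+/Y replicates 1 and 2 and Phf6-/Y replicate 3 lay below those of the first 4 cortices named, and that of Phf6-/Y replicate 5 overlapped them.

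For collagen VI, reads of Col6a1 were 41.1% (38.5 to 43.6%) of Col6a1 and Col6a2 reads in Phf6-/Y replicate 4 and 46.3% (42.5 to 50.1%) in Phf6+/Y replicate 3. The share was 35.7% (30.1 to 41.6%) in Phf6-/Y replicate 1 and 29.5% (24.7 to 34.7%) in Phf6-/Y replicate 2. It was 11.4% (5.59 to 19.9%) in Phf6+/Y replicate 1, 10.7% (5.02 to 19.4%) in Phf6+/Y replicate 2, 23.3% (14.8 to 33.6%) in Phf6-/Y replicate 3 and 14.3% (7.07 to 24.7%) in Phf6-/Y replicate 5. The 2 partner chains therefore did not keep a fixed ratio across the cortices.

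**Figure D2:**
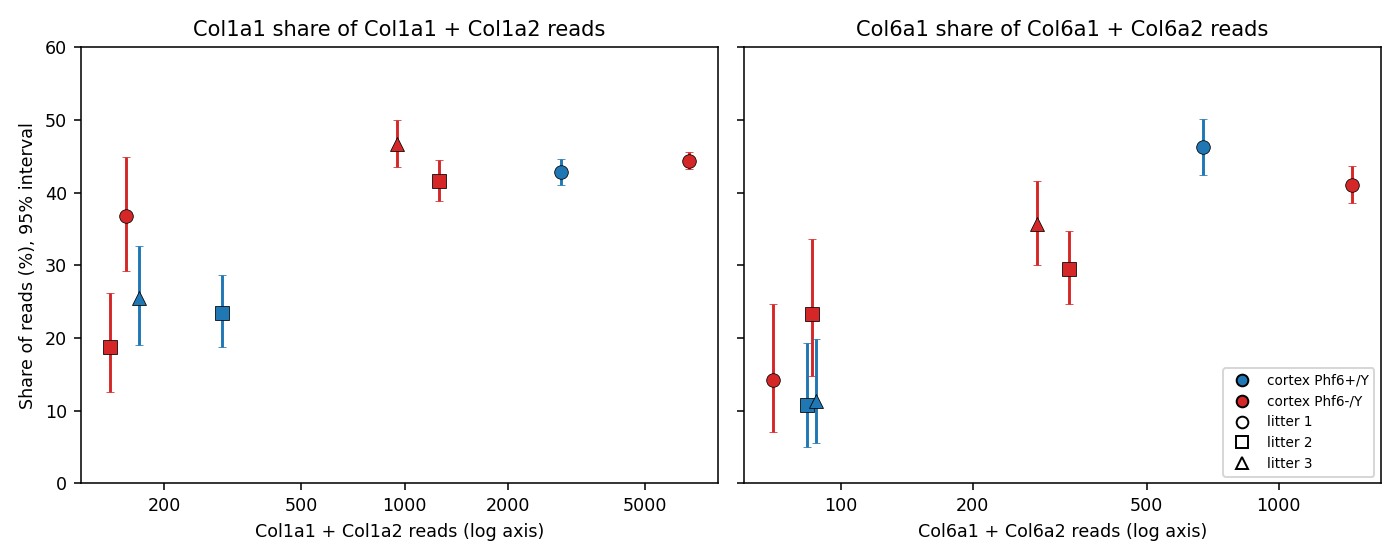
Share of Col1a1 in Col1a1 and Col1a2 reads (left) and of Col6a1 in Col6a1 and Col6a2 reads (right) against the reads of the pair (log axis) in each cortex, with 95% exact intervals. The Col1a1 share runs from 18.7 to 46.7% and the Col6a1 share from 10.7 to 46.3%.

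Levels differed widely within litters. In litter 1 the sum was 302 CPM in the control and 592 and 19.4 CPM in the Phf6-/Y cortices, a 30.6-fold range within 1 litter. In litter 2 it was 32.8 CPM in the control and 127 and 19.0 CPM in the Phf6-/Y cortices, a 6.67-fold range. In litter 3 the control was at 20.6 CPM and the Phf6-/Y cortex at 101 CPM, a 4.92-fold range. Within each litter the highest cortex was Phf6-/Y, and in litters 1 and 2 the lowest was Phf6-/Y as well. In edgeR's quasi-likelihood test of the litter terms over the 8 cortices, 0 of the 10 genes passed a Benjamini-Hochberg FDR of 0.05 (FDR 0.513 to 0.717), and 0 had an unadjusted p below 0.05. Of all 14750 genes tested, 1.70% passed and 2280 had an unadjusted p below 0.05. DESeq2 and limma-trend also called 0 of the 10. Without Phf6-/Y replicate 5, Foxc1 (FDR = 0.0021) and Cyp1b1 (FDR = 0.0043) passed in the same edgeR test of litter. With any other cortex left out, 0 of the 10 passed. The share of all genes called without Phf6-/Y replicate 5 is not given here, so these 2 calls are not read as a litter effect.

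**Figure D3:**
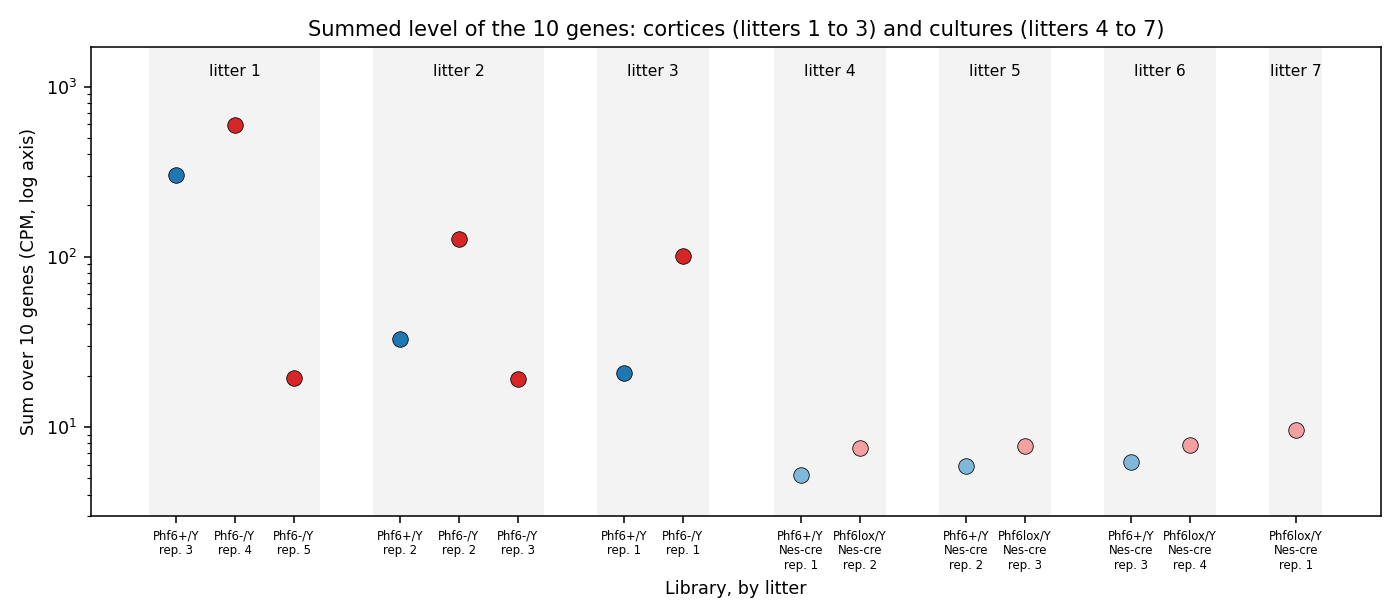
Sum of the 10 genes (CPM, log axis) in each library, placed by litter, with darker points for cortices and paler points for cultures. Litter 1 holds both the highest cortex, at 592 CPM, and one of the lowest, at 19.4 CPM, while all cultures lie between 5.24 and 9.61 CPM.

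Whether the germline deletion of Phf6 changed these genes in the cortex was tested within litters. All 10 fitted differences pointed to higher levels in Phf6-/Y cortices, and 0 of 10 passed. The log2 fold changes lay between 0.31 for Foxc1 (standard error, SE, 0.57, FDR = 0.906, edgeR) and 1.34 for Col1a1 (SE 1.68, FDR = 0.853, edgeR). Lum, at 1.13 (SE 2.08), and Aldh1a2, at 0.96 (SE 2.13), were the least precise. An unadjusted p below 0.05 was reached by 0 of the 10, and DESeq2 and limma-trend called 0. Of 14750 genes, 0.386% were called and 1542 had an unadjusted p below 0.05 in edgeR. The median log2 fold change of the 10 was 0.90, against -0.0021 over all genes tested, and since the 10 genes rise and fall together across libraries they amount to far fewer than 10 separate measurements. The standard errors left room for sizeable differences in either direction, which could not be detected at this spread between cortices. The direction rested partly on 1 library. Without Phf6-/Y replicate 4, the log2 fold change was -0.11 for Foxc1 and -0.45 for Slc6a13. Without both this library and Phf6+/Y replicate 3, chosen after their sums were seen, the 10 values were positive, from 0.53 (Foxc1) to 3.70 (Lum), and 0 passed.

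In the cultures, where deletion was by Nes-cre, 7 of the 10 genes had enough reads to be tested. Foxc1, Aldh1a2 and Slc6a13 did not pass the filter on low counts. The sum of the 10 genes was 5.24, 5.91 and 6.18 CPM in control replicates 1 to 3 and 9.61, 7.51, 7.70 and 7.83 CPM in Phf6lox/Y;Nes-cre replicates 1 to 4. The groups, of 3 and 4 libraries, did not overlap in this sum. How many of all genes separate in the same way was not counted, so this is not read as a genotype effect. The highest sum, in replicate 1, came from litter 7, which had no control. In edgeR's test with litter as a term, 0 of 7 genes passed, as in DESeq2 and limma-trend, where edgeR called 0.273% of 13909 genes. Cyp1b1 was at 0.880, 1.43 and 1.01 CPM in controls and at 1.53, 1.77, 2.74 and 1.59 CPM in Phf6lox/Y;Nes-cre cultures. It was the 1 gene of the 7 with an unadjusted p below 0.05, against 1437 of all 13909 genes tested. Its log2 fold change was 0.87 (SE 0.38, FDR = 0.446, edgeR). Col6a2 had 0.66 (SE 0.41), Col1a1 0.67 (SE 0.52) and Col1a2 0.43 (SE 0.50), while Col3a1 had -0.33 (SE 0.55) and Col6a1 -0.78 (SE 0.67). The fitted differences of the 7 genes thus pointed both ways, with a median of 0.43 against 0.00097 over all genes tested. The summed level of 10 choroid plexus markers was at 4.69 to 6.69 CPM in controls and at 7.88 to 29.4 CPM in Phf6lox/Y;Nes-cre cultures. These did not overlap either, again without a count over all genes. Of the 10 markers 4 were tested, and 1 was called, Ttr (log2 fold change 2.84, SE 0.27, FDR = 0.000188, edgeR). Ttr was also called between litters of cultures (FDR = 0.000625, edgeR), and litter 7 had no control. Aqp1, Sostdc1 and Otx2 were not called (FDR 0.646 to 0.883, edgeR). The part of choroid plexus in the values of the 10 genes was not tested. Between litters of cultures, 0 of 7 genes passed in edgeR, DESeq2 or limma-trend, against 5.01% of all genes tested in edgeR. Of the 7 only Col6a1 had an unadjusted p below 0.05 (FDR = 0.222, edgeR), against 2885 of all 13909 genes. The genotype effect in cultures minus that in cortices was tested in 1 fit over all 15 libraries. It passed for 0 of 10 genes, with 0 at an unadjusted p below 0.05. Of all 15001 genes, 0.0133% passed and 779 had an unadjusted p below 0.05. DESeq2 and limma-trend called 0 of the 10 there too.

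Control cultures were compared with control cortices next. Col3a1 was at 0.844, 0.600 and 0.833 CPM in control cultures against 6.85 to 119 CPM in control cortices, with a log2 fold change of -5.90 (SE 1.74, FDR = 0.0499, edgeR). Col6a2 was at 0.844, 1.71 and 1.27 CPM against 2.44 to 14.5 CPM, with -2.39 (SE 0.80, FDR = 0.0459, edgeR). Foxc1 was at 0.147, 0.0923 and 0.0439 CPM against 3.45 to 10.0 CPM, and its log2 fold change was -5.87 (SE 0.59, FDR = 5.36e-06, edgeR). Foxc1 did not pass the filter on low counts within the cultures and entered this test through the cortices, so its direction was fixed by the filter. These 3 of the 8 genes tested were called lower and 0 were called higher. Of all 14320 genes tested, 26.4% were called lower and 24.7% higher in cultures. Among the 7 genes that passed the filter within both tissues, 2 were called lower, against 24.8% of 13693 such genes, so the share is close to the background. The median log2 fold change of the 7 was -2.86, against -0.0078 over the 13693.

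The calls of Col3a1 and Col6a2 did not hold under every alternative. Each was lost when any 1 control culture was left out (FDR 0.149 to 0.151 for Col3a1 and 0.116 to 0.215 for Col6a2, edgeR) and without the filter on low counts (FDR = 0.0605 and 0.112, edgeR). That of Col3a1 was also lost without cortex Phf6+/Y replicate 2 (FDR = 0.0635, edgeR). That of Col6a2 was also lost with litter as a random block (FDR = 0.096, limma-trend) and in a fit of all 15 libraries in 4 groups (FDR = 0.0632, edgeR).

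The other 5 tested genes did not pass in edgeR. Col1a2 had a log2 fold change of -5.00 (SE 1.58, FDR = 0.0606, edgeR). It passed in DESeq2 (FDR = 9.53e-05), in limma-trend (FDR = 0.0408, or 0.0242 with litter as a random block) and in the edgeR fit of all 15 libraries (FDR = 0.025). Col1a1 had -4.90 (SE 1.97, FDR = 0.109, edgeR). Without cortex Phf6+/Y replicate 3, the control with the highest sum, the values moved to -1.79 for Col1a1 (FDR = 0.0135, edgeR) and -2.98 for Col1a2 (FDR = 0.00058, edgeR). Cyp1b1 had -1.55 (FDR = 0.220 in edgeR and 0.0455 in DESeq2). Without that cortex the log2 fold changes of Col6a1, Lum and Cyp1b1 turned to 0.83, 1.83 and 0.36, and none of the 3 passed in edgeR. Lum was at 0.330, 0.738 and 0.526 CPM in control cultures, above control cortices 1 and 2. Cyp1b1 was at 0.880 to 1.43 CPM in control cultures, above the same 2 cortices.

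Slc6a13 had 0 reads in all 3 control cultures, so it was at least 62.4-fold lower there than in control cortices (floor of 3 counts over the group, counting error only). Without cortex Phf6+/Y replicate 3 this bound was 9.61-fold. Aldh1a2 had 2 reads in all 3 control cultures together. Neither passed the filter on low counts. Of the 7 genes that passed the filter within both tissues, control cultures lay below every control cortex for 4 (Col1a1, Col1a2, Col3a1 and Col6a2), against 29.9% of all such genes. All 7 cultures lay below all 8 cortices for 3 of them (Col1a2, Col3a1 and Col6a2), against 18.5% of such genes. Among Phf6-deleted libraries, in the fit of all 15 libraries, Col1a1, Col1a2, Col3a1 and Col6a2 of the 7 were called lower in cultures, against 29.3% of such genes. Stage, digestion and culture, and the Nes-cre transgene differed together between cortices and cultures and cannot be told apart.

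**Figure D4:**
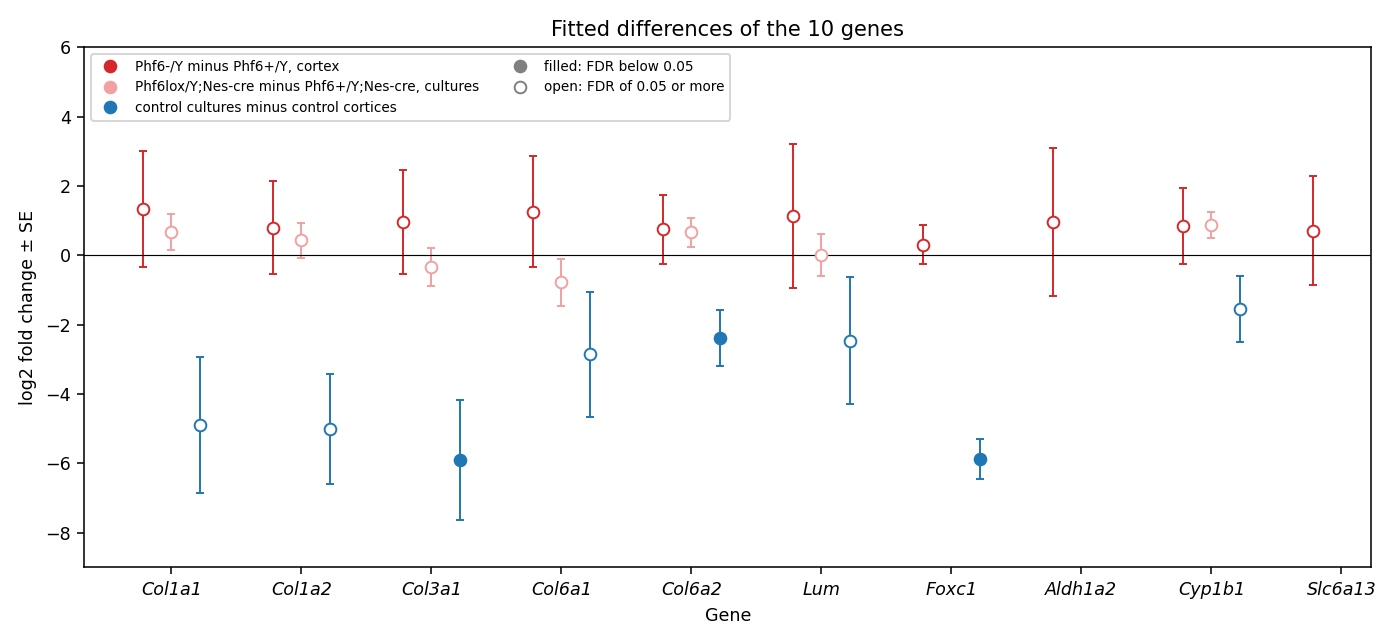
Fitted log2 fold change with its standard error for each gene in 3 comparisons, with filled points for FDR below 0.05 in edgeR's test and no point where the gene was not tested. The 10 genotype differences in the cortex are positive and open, and Col3a1, Col6a2 and Foxc1 are filled below 0 for control cultures against control cortices, where Foxc1 passed the low-count filter through the cortices.

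Other fibroblast genes followed the 10 across the cortices to very different degrees. The likeness of each gene was measured as Pearson's r of its log2 CPM with the mean of the 10 genes over the 8 cortices, each gene scaled to its mean and SD, for 13472 genes with a mean of at least 1 CPM. The median r over all of them was -0.033, and 0.772% had an r of at least 0.9, the 10 genes included. Small leucine-rich proteoglycans, the family of lumican, were the closest list, with a median r of 0.912 over the 5 of 8 compared. Of the 5, 3 reached 0.9. Their sum ran from 26.7 to 103 CPM in cortices, a 3.88-fold range. Bgn (biglycan) was at 19.4 to 45.6 CPM in cortices. Transcription factors of meningeal mesenchyme had a median r of 0.859 over 5 of 10 compared, and 1 reached 0.9. Their sum ran from 13.3 to 52.2 CPM. Membrane and signalling proteins of meninges had a median r of 0.892 over 15 of 19, and 7 of them reached 0.9, among them Igf2 and Cxcl12, which encodes the chemokine that the meninges release. Igf2, a growth factor of meninges, choroid plexus and vessels, was at 44.5 to 247 CPM.

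Other genes that build collagen fibres had lower values of r. Over 21 such genes the median was 0.666, their sum moved 1.68-fold, from 477 to 800 CPM, and 3 reached 0.9. These were Col6a3, the third main chain of collagen VI, Pcolce, which aids the trimming of procollagen, and Lox, which cross-links collagen, named after their values were seen. Serpinh1, the collagen chaperone HSP47, was at 98.9 to 172 CPM and Sparc, a collagen-binding matrix protein, at 56.5 to 120 CPM in cortices. Other secreted matrix proteins had a median r of 0.745 over 11 of 13 compared and a 1.57-fold range, and 1 reached 0.9. Basement membrane genes had a median r of 0.826 over 13 and a 1.82-fold range, and 2 reached 0.9. Col4a1, a chain of collagen IV, was at 198 to 553 CPM. Retinoic acid genes other than Aldh1a2 had a median r of 0.128 over 14 of 18 compared and a sum that stayed between 279 and 323 CPM. Stra6, which takes up retinol bound to its carrier, was the 1 retinoic acid gene with an r of at least 0.9.

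Markers of other cells were set beside these values. Endothelial markers had a median r of 0.841 over 10, and 0 of them reached 0.9. Their sum ran from 171 to 370 CPM, a 2.16-fold range. Mural cell markers had 0.698 over 10, with a sum of 171 to 301 CPM, and 4 of them reached 0.9. Macrophage markers had 0.698 over 10 of 12 compared, with a sum of 38.1 to 111 CPM, and 2 of them reached 0.9. Each of these 3 sums was highest in Phf6-/Y replicate 4. Erythroid markers had 0.508 over 6 of 8 and a sum of 180 to 472 CPM.

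Choroid plexus markers ranged even more widely than the 10 genes, from 10.7 to 493 CPM, a 46.1-fold range, with a median r of 0.662 over 7 of 10 compared. Their sum was 13.0, 493 and 360 CPM in Phf6+/Y replicates 1 to 3 and 99.9, 31.5, 13.5, 354 and 10.7 CPM in Phf6-/Y replicates 1 to 5. It was highest in Phf6+/Y replicate 2, where the sum of the 10 genes was 32.8 CPM, so the lists parted there. The part of that tissue in the levels of the 10 genes was not tested. Radial glia markers stayed between 2312 and 2765 CPM, with a median r of -0.17, and neuron markers between 5043 and 7175 CPM, with -0.13. Markers of skull bone (6.73 to 8.67 CPM), skeletal muscle (2.57 to 4.10 CPM), keratinocytes (12.6 to 21.9 CPM) and Schwann or neural crest cells (26.3 to 37.1 CPM) moved at most 1.74-fold, and their median r, over 1 to 3 genes compared in each list, lay between -0.31 and 0.28.

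**Figure D5:**
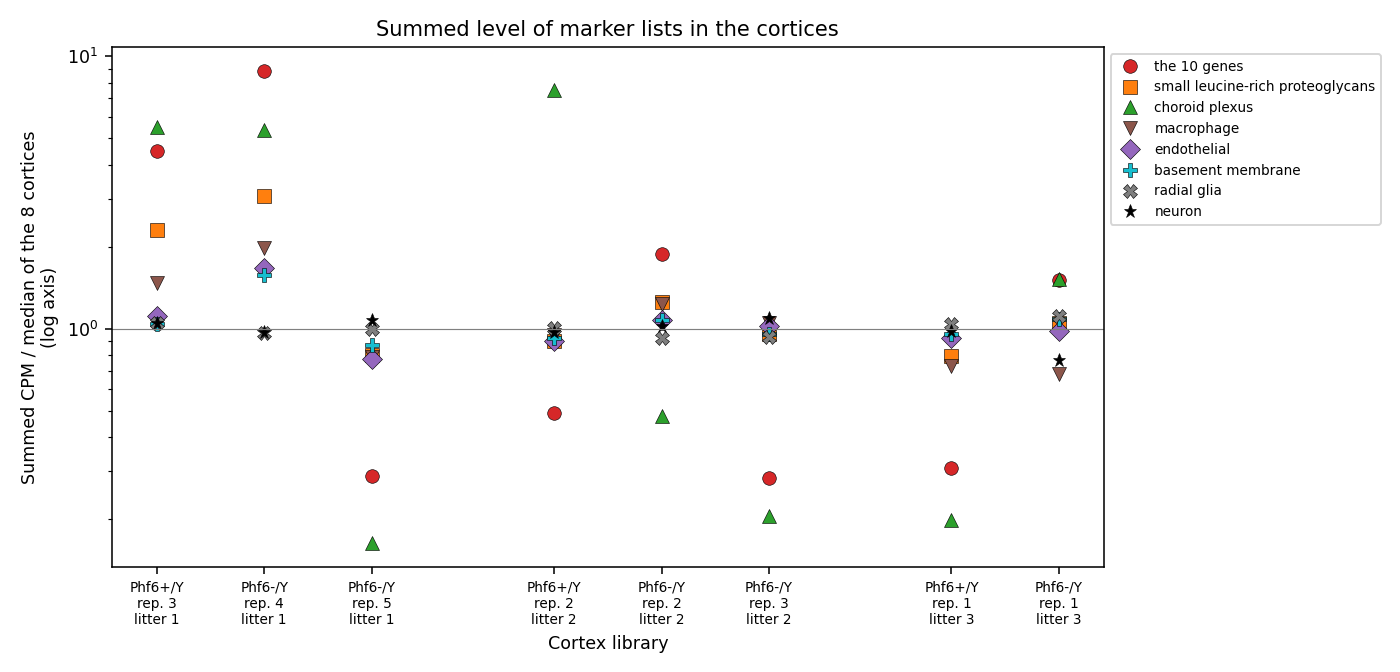
Summed CPM of 8 marker lists in each cortex, divided by the median of the 8 cortices (log axis) and placed by litter. The sums of radial glia and neuron markers stay close to 1, that of the 10 genes spans 31.2-fold, and choroid plexus markers peak in Phf6+/Y replicate 2.

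Outside the 10, genes most like them in the cortices were Colec12 (r = 0.990), a scavenger receptor, and Cldn11 (r = 0.986), a claudin of arachnoid barrier cells. Cd302, Serpinf1, Osr1, Dcn, Igf2, Stra6 and Col13a1 had lower values, down to r = 0.971 for Col13a1. Colec12 was at 1.63 to 30.8 CPM, Cldn11 at 0.256 to 19.7 CPM and Dcn, the proteoglycan decorin, at 1.81 to 35.1 CPM. Osr1, a zinc finger transcription factor of mesenchyme, ran from 0 to 5.75 CPM. Cd302 moved far less, from 1.30 to 2.89 CPM. These genes were selected for their likeness over the same 8 libraries, so their r is a description. Without Phf6+/Y replicate 3 and Phf6-/Y replicate 4, the 2 cortices farthest from the median, r stayed at 0.90 or more for each of them. Beside the 10 members, 94 genes had an r of at least 0.9 and 2 had an r of -0.9 or less, Kbtbd6 and Gfer, named after their values were seen, which moved from 3.91 to 6.38 CPM and from 24.6 to 27.6 CPM. Without the same 2 cortices their r was -0.82 and -0.74.

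The collagen processing, proteoglycan, other matrix, basement membrane, retinoic acid, transcription factor and membrane or signalling lists held 102 genes. In cortices 89 of them were tested for genotype and 0 passed in edgeR, DESeq2 or limma-trend. An unadjusted p below 0.05 in edgeR was reached by 7 of the 89, against 1542 of all 14750 genes. In cultures 71 were tested and 0 passed in any of the 3 tools, with 6 at an unadjusted p below 0.05 in edgeR, against 1437 of all 13909 genes. For control cultures against control cortices, genes of each list that passed the filter within both tissues were counted, to be read against 24.8% called lower and 25.5% called higher over all such genes. Basement membrane genes were lower for 11 of 13 and higher for 1, Lama2. Col4a1 had a log2 fold change of -3.27 (SE 0.18, FDR = 1.57e-06, edgeR), and Agrn, which encodes agrin, had -0.25 (SE 0.09, FDR = 0.0293, edgeR). Collagen processing genes were lower for 11 of 19, proteoglycans for 2 of 4 and other matrix genes for 7 of 10, and 0 of these were higher. Retinoic acid genes were lower for 10 of 14 and higher for 1, Rarg, which encodes a retinoic acid receptor. Meningeal transcription factors were lower for 2 of 2, and membrane or signalling genes were lower for 6 of 8 and higher for 1, Crym. Endothelial markers were lower for 3 of 3, while the other 7 of the list did not pass within the cultures. Radial glia markers were lower for 10 of 10. Neuron markers were higher for 6 of 10 and lower for 3.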

How the data were processed

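RNA of 8 E15.5 cortices and 7 cultures of E16.5 cortical neurons was made into stranded libraries. The authors aligned reads to mm10 with Rsubread and deposited counts of reads per Entrez gene from featureCounts with its inbuilt RefSeq annotation, without normalisation. The strand setting of the counting is not given in the sources used here. Rows without an identifier held 0.349 to 0.605% of counts and were left out. Of 26150 identifiers, 875 were not matched to a RefSeq symbol. Pseudogenes (835), ribosomal RNA genes (35) and predicted genes (1273) were removed.

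Genes were filtered with filterByExpr, scaled by TMM and tested with edgeR 4.0.16 (robust quasi-likelihood F tests, Benjamini-Hochberg over all genes tested), each tissue on its own with litter as a term. Standard errors come from the fitted log2 fold change and its F statistic. Control cultures and control cortices were fitted without litter, which is nested in tissue. Alternatives were DESeq2 1.42.0, limma-trend (limma 3.58.1), other scalings, no filter, other litter terms and each library left out. The fits were also run on simulated counts with the same spread setting for all genes. That setting is unlike the wide spread of the 10 genes across cortices, and the outcome is not given here. CPM use TMM sizes over all 15 libraries, and correlations use log2 CPM with a prior count of 2. The 10 genes and all lists were chosen with earlier results of these data known. Every gene of the 10 is named. From each list up to 4 of the most abundant genes that passed in a comparison are named, and so are the 10 genes most like the members, except 1 that is not reported here.

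By the study's account each library stands for 1 foetus, and foetuses of a litter are siblings. The replicate numbers in the sample titles do not follow the litters that the labels give.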

Additional observations from a re-analysis of the deposited data

Results flagged for a closer look

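A single library stood apart from its group by Dixon's test at 95% for 12 of 22 tests (10 genes and their sum in the 2 groups of 4 or 5 samples). Chance alone passes this test in about 1 of 20 groups only where values are normally distributed. CPM were used without a log, and they were widely spread between cortices, so that rate may not hold here. These tests are not independent, since the genes follow each other. Of the 12, 9 were the cortex Phf6-/Y replicate 4, which lay far above the other 4 Phf6-/Y cortices. It held Col1a1 at 101 CPM, Col1a2 at 127 CPM, Col3a1 at 245 CPM, Col6a1 at 20.5 CPM and Col6a2 at 29.5 CPM. In the same library Aldh1a2 was at 11.3 CPM, Cyp1b1 at 14.9 CPM, Slc6a13 at 16.6 CPM and the sum of the 10 genes at 592 CPM. Lum and Foxc1 were highest in this library too but did not stand apart by this test.

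In the Phf6lox/Y;Nes-cre cultures, Aldh1a2 stood apart in replicate 1 at 0.0493 CPM and Slc6a13 in replicate 3 at 0.191 CPM. These were 1 and 3 reads where the other 3 cultures had 0, at or below the floor of 3 counts. The sum of the 10 genes stood apart in replicate 1, at 9.61 CPM, the 1 culture whose litter had no control.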

How the results depend on the processing

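The counts of called members stayed at 0 in most tests, where they cannot move lower, and shifted from 3 for control cultures against control cortices. Under every alternative 0 of 10 were called for genotype in cortices and for the difference between tissues, and 0 of the 7 tested (10 without the filter) in cultures. For litter in cortices, 0 to 2 were called with a library left out. For control cultures against control cortices, 1 member was called without the filter on low counts and 5 with DESeq2. Among the Phf6-deleted libraries 7 were called (3 of them, Foxc1, Aldh1a2 and Slc6a13, tested only through the cortices). With a library left out, 1 to 5 were called. Foxc1 was among the called genes in each of these fits, and the shares of all genes called in them are not given here. Counts over all genes moved as well. For genotype in cortices, 114 were called without the filter, 199 with DESeq2, 1 without the litter term, 36 without the 2 cortices of highest sums (chosen after seeing the data) and 7 to 81 with a library left out. In cultures, 73 were called with library totals, 297 without the filter, 62 with DESeq2, 1 without the litter term and 16 to 494 with a library left out. For litter in cortices, 482 were called without the filter, 830 with DESeq2, 137 without those 2 cortices and 16 to 586 with a library left out. For litter in cultures, 1961 were called without the filter and 488 to 2398 with a library left out. For the difference between tissues, 5 were called without the filter, 12 with DESeq2, 0 without the litter term and 0 to 4 with a library left out. The cause of these shifts was not tested.

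With the replicate number as a replicate block in place of litter, 5 genes were called in cultures, and uncalled log2 fold changes turned to -0.26 for Slc6a13 in cortices and to 0.054 for Col3a1 and -0.25 for Lum in cultures. Without a litter term Col6a1 in cultures turned to 0.24. Slc6a13 in cortices turned to -0.16 with limma-trend and ran from -0.45 to 1.36 with a library left out, and Foxc1 from -0.11 to 0.59. Lum in cultures, at 0.020 in the main fit, was -0.0026 without the filter, -0.014 with DESeq2 and -0.041 with limma-trend. With a library left out it ran from -0.35 to 0.53. For control cultures against control cortices, values with a library left out ran from -3.42 to 0.83 for Col6a1, from -3.05 to 1.83 for Lum and from -2.004 to 0.36 for Cyp1b1. Where a group of 3 lost a library, its spread was pooled with the others. The highest cortex sum was 16.3 times the lowest without Col1a1, Col1a2 and Col3a1, and 58 to 172 genes followed the members at r of 0.9 with a library left out. Aldh1a2, Slc6a13 and Foxc1 each had at most 6 reads in any culture, so their values there are imprecise.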
